A study of Mus musculus with 12 samples.

Results

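Teff-sorted cells of deposited cluster 0 are splenic CD8+ T cells that the authors' clustering placed in its cluster 0 and that came from a library of sorted effector cells (Teff, CD44 high and PD1 negative). They were taken as the rows of the deposited cell table that name a Teff library and carry the cluster number 0. The rule gave 24901 cells of the 100540 in the table, and of the 53940 Teff cells. The anti-CD137 library held 11939 of them and the Ig control library 12962. The cells came from wild-type C57BL/6 mice. The anti-CD137 library came from 5 mice given 10 µg of clone 3H3, an antibody to the costimulatory receptor CD137 (4-1BB), in 2 injections a week over 14 days. The Ig control library came from 10 mice given 100 µg of clone HRPN, a control immunoglobulin, on the same schedule. Each sort and treatment gave 1 library, read both for 5′ ends of transcripts and for the chains of the T cell receptor (TCR), and the files do not tie cells to single mice. With 1 library per treatment no difference has a replicate check, so no test was run. Dose, number of mice and library differ along with the treatment, and their effects cannot be told apart from it.

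CD44 is raised on T cells that have met antigen or have expanded in response to cytokines, and PD1 is an inhibitory receptor that activation raises and lasting stimulation keeps high. Each αβ T cell carries a receptor made of a TRB and a TRA chain, joined from V, D (in TRB only) and J segments, with non-templated bases added at the joins. The joined stretch, CDR3, contacts the peptide. Because the join differs from cell to cell, a CDR3 nucleotide pair serves as a natural label of a clone, and the Tra locus can rearrange more than once, beginning at the J segments nearest the V segments and moving on to farther ones.

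The cells were checked as T cells by their receptors, since values per gene were not used here. A TRA or TRB chain was joined to 88.6% of anti-CD137 cluster 0 cells (95% interval 88.0 to 89.2) and to 76.1% of Ig control cluster 0 cells (75.3 to 76.8). All intervals here are exact Clopper-Pearson intervals of a share, or Newcombe intervals of a difference, and cover counting error only. For shares thinned to a smaller number of cells, the interval was set on the rounded expected count as if it had been counted. It does not cover the spread of the thinning. A chain pair of the invariant NKT type, a TRAV11 family segment with TRAJ18, was found in 3 of 8109 paired anti-CD137 cells and 2 of 7744 paired Ig control cells. The pair of MAIT cells, TRAV1 with TRAJ33, was found in 0 of 8109 and 0 of 7744 cells, which allows shares of up to 0.0370% and 0.0387% by a limit of 3 counts, and up to 0.0455% and 0.0476% by the exact interval. Whether the cells hold effector or naive-like transcripts was not analysed here, and the name Teff is that of the sort.

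The sequences that carry the receptor results are shown first. Each is a CDR3 from its cysteine codon to its phenylalanine or tryptophan codon, in lower case where it matches the germline V or J segment and in capitals where it matches neither, so that capitals mark D and added bases. The first set holds the TRB CDR3s of cluster 0 found in both treatments and in most cells, a rule for 5 that took 6 because of ties.
Shared TRB 1: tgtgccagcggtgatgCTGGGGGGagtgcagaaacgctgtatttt
Shared TRB 2: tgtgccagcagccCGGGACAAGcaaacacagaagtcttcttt
Shared TRB 3: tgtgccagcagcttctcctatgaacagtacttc
Shared TRB 4: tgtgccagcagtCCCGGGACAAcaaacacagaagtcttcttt
Shared TRB 5: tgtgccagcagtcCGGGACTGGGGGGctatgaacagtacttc
Shared TRB 6: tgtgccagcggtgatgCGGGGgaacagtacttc
Shared TRB 1 lay in 2 anti-CD137 and 2 Ig control cells, with the combined call TRBV12-2+TRBV13-2 and TRBJ2-3, and its 4 cells had 4 different TRA chains. Shared TRB 3 lay in 2 anti-CD137 cells and 1 Ig control cell and had 0 bases outside the germline segments. Of the others, Shared TRB 5 had the most such bases, 13. Shared TRB 2 to 5 were listed with more than 1 V segment, so cells that share the CDR3 letters there need not share the whole chain.

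The second set holds clonotypes of cluster 0, where a clonotype is the pair of the nucleotide CDR3s of a cell's most abundant TRB and TRA.
Anti-CD137 clonotype 1 TRB: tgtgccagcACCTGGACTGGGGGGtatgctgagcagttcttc
Anti-CD137 clonotype 1 TRA: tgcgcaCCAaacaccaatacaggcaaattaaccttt
Anti-CD137 clonotype 2 TRB: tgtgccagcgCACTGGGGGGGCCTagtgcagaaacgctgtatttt
Anti-CD137 clonotype 2 TRA: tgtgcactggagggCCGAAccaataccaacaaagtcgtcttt
Ig control clonotype 1 TRB: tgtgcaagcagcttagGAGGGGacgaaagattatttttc
Ig control clonotype 1 TRA: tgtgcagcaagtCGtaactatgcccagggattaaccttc
Ig control clonotype 3 TRB: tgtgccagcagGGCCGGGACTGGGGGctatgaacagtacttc
Ig control clonotype 3 TRA: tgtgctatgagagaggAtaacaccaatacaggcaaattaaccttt
Each of these was found in 3 cells, the largest size in either library. The 2 anti-CD137 clonotypes were the only ones of 3 cells there. The next, 1 of 24 of 2 cells, lay in cells of 1948 and 3030 UMIs and is not printed. The Ig control had 7, of which 3 were taken in the order of their CDR3 letters. Ig control clonotype 2, in cells of 1330, 1966 and 2975 UMIs, is not printed because its V segment, TRBV10, had no germline match. Anti-CD137 clonotype 1 (TRBV12-1, TRBJ2-1, TRAV3N-3, TRAJ27) lay in cells of 1133, 1445 and 2260 unique molecular identifiers (UMIs, single captured transcripts). Ig control clonotype 1 (TRBV16, TRBJ1-4, TRAV14N-3, TRAJ26) lay in cells of 1045, 1051 and 1173 UMIs. Ig control clonotype 3 (TRBV15, TRBJ2-7, TRAV16N, TRAJ27) lay in cells of 1953, 2197 and 2212 UMIs.

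The third set shows germline segments of the mm10 build, from the GENCODE M21 transcripts on the plus strand. It holds the D segments, whose G-rich letters recur in the capitals above. It also holds some of the J segments named below for a fold of at least 1.2 between treatments or clusters.
TRBD1, chr6:41533201-41533212: gggacagggggc
TRBD2, chr6:41542163-41542176: gggactgggggggc
TRAJ9, chr14:54209393-54209450: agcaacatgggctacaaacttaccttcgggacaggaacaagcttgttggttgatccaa
TRAJ7, chr14:54211470-54211528: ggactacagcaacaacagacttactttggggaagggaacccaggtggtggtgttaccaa
TRAJ37, chr14:54181518-54181577: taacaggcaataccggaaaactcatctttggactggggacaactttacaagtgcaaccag
TRAJ52, chr14:54165316-54165381: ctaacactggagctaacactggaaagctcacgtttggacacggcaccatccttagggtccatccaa
TRAJ56, chr14:54159263-54159325: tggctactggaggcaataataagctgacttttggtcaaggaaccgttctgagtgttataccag
Numbers of TRAJ segments fall along the locus. Of those printed here, TRAJ56 and TRAJ52 thus lie nearest the TRAV segments and TRAJ7 and TRAJ9 lie farthest from them.

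Cluster 0 took a smaller share of Teff cells after anti-CD137, 42.6% (42.0 to 43.2), against 50.02% in the Ig control (49.4 to 50.6), a difference of -7.43 percentage points (-8.27 to -6.58). Nearly the whole cluster was Teff: 97.8% of its 25461 cells came from Teff libraries, and the other 560 from the PD1-positive sorts. It held 1.01% of the anti-CD137 precursor exhausted library, against 3.12% of the Ig control one, and 0.0303% of the anti-CD137 exhausted library, against 0.207% of the Ig control one. Cluster 2, the other large Teff cluster, held 45.1% of anti-CD137 and 39.4% of Ig control Teff cells. The authors' clustering used the expression of these same cells, so comparisons of cluster 0 with cluster 2 are descriptions.

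Cluster 0 held shallower cells than cluster 2. The cluster 0 median was 3264 UMIs per cell after anti-CD137 (quartiles 2475 and 4134), against 3354 in the Ig control (2109 and 4488), and the cluster 2 medians were 4925 and 5335.5. In the pooled smaller Teff clusters the medians were 3754 and 3439, above cluster 0. Their lower quartiles, 2332 and 2062, were below those of cluster 0. The median number of genes with a UMI was 1281 in anti-CD137 cluster 0 cells and 1310 in Ig control cluster 0 cells, against 1702 and 1809 in cluster 2. The 2 libraries' medians were near each other but the Ig control was spread more widely. Cells under 2000 UMIs made up 12.3% of anti-CD137 cluster 0 cells (11.7 to 12.9) and 22.7% of Ig control cluster 0 cells (22.0 to 23.5). From 3000 UMIs up the shares were 58.5% and 57.5%. Of all UMIs in its Teff library, cluster 0 held 32.8% after anti-CD137 and 39.2% in the Ig control.

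Cells were therefore set into 9 bins of UMIs per cell. Under 1000 UMIs cluster 0 made up 34.7% of the 277 anti-CD137 and 65.3% of the 415 Ig control Teff cells. From 1000 UMIs up its share was highest at first and then mostly fell. It was 72.7% of anti-CD137 and 82.9% of Ig control cells with 1000 to 1500 UMIs. With 3000 to 4000 UMIs it was 55.1% and 61.3%, and from 7000 up 10.9% and 13.7%. The anti-CD137 share was the lower one in 8 of 9 bins, and in the bin from 2000 to 2500 UMIs it was 71.5%, against 70.5% in the Ig control. Detection of a receptor chain depended on the bin much more strongly in the Ig control. In cells of 1000 to 1500 UMIs, 64.1% of anti-CD137 and 29.6% of Ig control cluster 0 cells had a chain, and in cells of 4000 to 5000 UMIs 95.3% and 95.6% had one. Above that the anti-CD137 share was the lower one, 90.7% against 95.2% with 5000 to 7000 UMIs and 74.6% against 83.3% from 7000 UMIs up. Under 2000 UMIs the shares with any chain were 72.2% (69.8 to 74.4) and 35.8% (34.0 to 37.5). From 3000 UMIs up they were 92.7% (92.0 to 93.3) and 93.3% (92.7 to 93.9), a difference of -0.637 points (-1.48 to 0.206). What the low-UMI Ig control barcodes without a chain are was not tested.

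**Figure D1:**
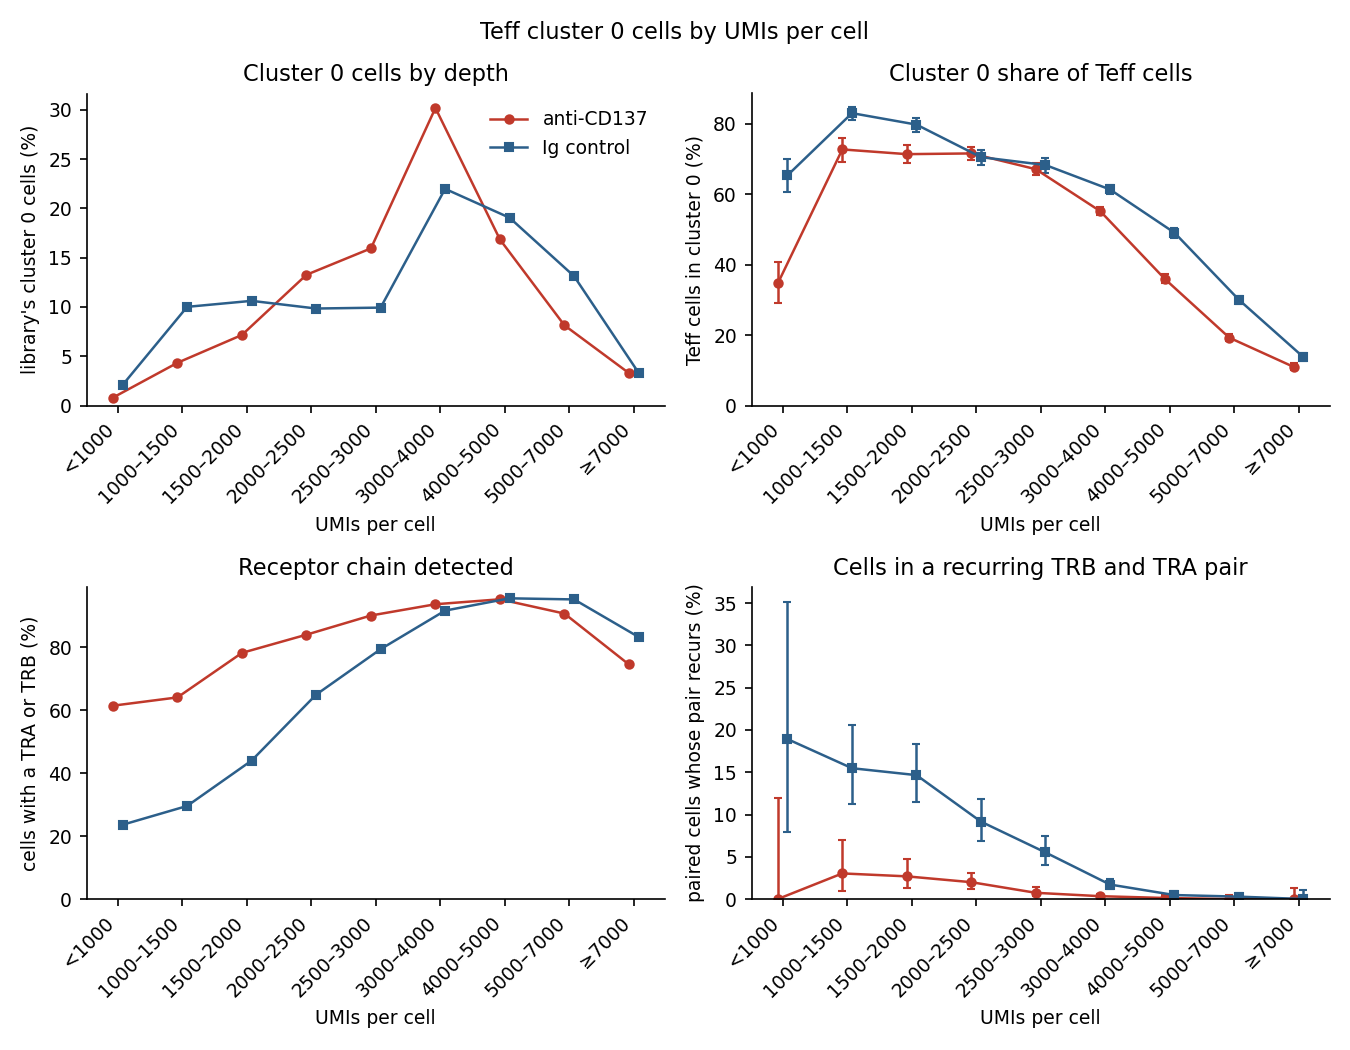
Teff cluster 0 cells in 9 bins of UMIs per cell, anti-CD137 in red circles and Ig control in blue squares: share of the library's cluster 0 cells in each bin, share of Teff cells that are in cluster 0, share with a receptor chain, and share of paired cells whose TRB and TRA pair recurs in cluster 0. Bars, where drawn, are exact 95% intervals. Chain detection differed most below 3000 UMIs, 64.1% against 29.6% at 1000 to 1500, and recurring pairs lay mostly in low-UMI Ig control cells, 3.03% against 15.5% in that bin.

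A TRB and a TRA together were found in 67.9% of anti-CD137 cluster 0 cells (67.1 to 68.8) and 59.7% of Ig control cluster 0 cells (58.9 to 60.6), a difference of 8.18 points (6.98 to 9.37). In cells with at least 3000 UMIs the paired shares were 77.0% and 76.8%, a difference of 0.283 points (-1.10 to 1.67). In cluster 2 they were 77.1% and 77.2%. A paired cluster 0 cell had a median of 9 TRB UMIs after anti-CD137 and 8 in the Ig control, and of 3 TRA UMIs in both. A second TRA was found in 12.1% of paired anti-CD137 cells (11.4 to 12.9) and 13.1% of paired Ig control cells (12.4 to 13.9), and a second TRB in 11.1% and 10.7%. Both were more frequent in the deeper cluster 2, where a second TRA was found in 20.1% and 19.6% and a second TRB in 23.8% and 21.5%.

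Mitochondrial transcripts, which code for subunits of the respiratory chain and often mark stressed or leaky cells when high, took a smaller share after anti-CD137. The median was 1.66% of UMIs in anti-CD137 cluster 0 cells (quartiles 1.204 and 2.18), against 2.26% in Ig control cluster 0 cells (1.77 and 2.86). Cluster 2 of the same libraries gave 1.68% and 2.32%, so the difference is not particular to cluster 0. The anti-CD137 median was lower in 7 of 9 UMI bins, with a difference of -0.814 points in the bin where the libraries lay farthest apart, and higher in the 2 bins below 1500 UMIs. Cells above 5% mitochondrial UMIs made up 0.586% of anti-CD137 and 3.07% of Ig control cluster 0 cells.

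Ribosomal protein transcripts, which make up a large share of the RNA of small resting lymphocytes, had a median of 38.3% of UMIs in anti-CD137 cluster 0 cells and 37.2% in Ig control cluster 0 cells. In cluster 2 the medians were 39.2% and 38.1%. The order depended on depth: the anti-CD137 median was lower below 2000 UMIs, 33.0% against 35.3% at 1000 to 1500, and higher from 2000 to 5000 UMIs, 39.3% against 38.1% at 3000 to 4000. It was lower again from 5000 to 7000 UMIs, 39.7% against 40.5%, and higher from 7000 up, 37.8% against 37.2%. It was higher in 5 of the 9 bins. In the pooled cells of the smaller Teff clusters the medians were 24.9% and 25.7%, below clusters 0 and 2 in both libraries.

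The deposited cell cycle columns called fewer anti-CD137 cells S or G2M. The share was 44.5% of anti-CD137 cluster 0 cells (43.6 to 45.3) and 54.2% of Ig control cluster 0 cells (53.4 to 55.1), a difference of -9.78 points (-11.0 to -8.54), and the anti-CD137 share was lower in 9 of 9 UMI bins. Cluster 2 gave 34.9% and 44.8%, a difference of -9.90 points (-11.2 to -8.62). The calls follow the sign of the scores: in 100% of the cells G1 was given exactly where both scores were below 0. Most calls rested on scores close to 0. Only 3.02% of anti-CD137 (2.72 to 3.35) and 4.94% of Ig control cluster 0 cells (4.57 to 5.32) had an S or G2M score above 0.1, and 41.4% and 49.3% were called S or G2M with both scores at or below it. By phase, 32.6% of anti-CD137 and 40.2% of Ig control cells were called S, and 11.9% and 14.1% G2M. The median S score was -0.020 after anti-CD137 and -0.0069 in the Ig control, and no share of dividing cells is read from these calls.

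**Figure D2:**
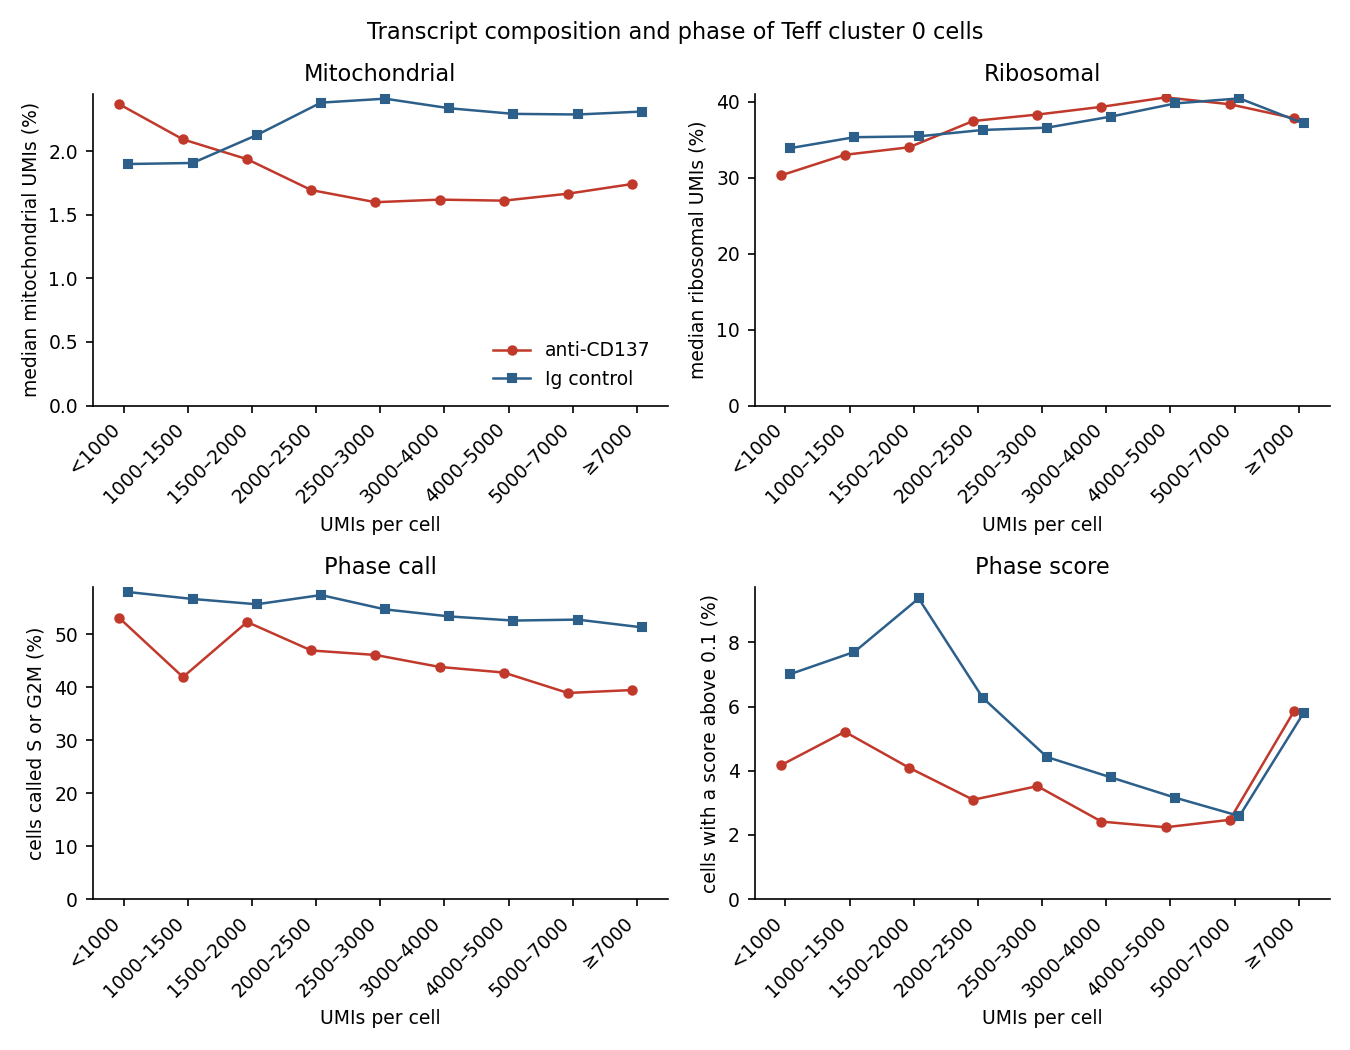
Median mitochondrial and ribosomal percent of UMIs, share of cells called S or G2M, and share with an S or G2M score above 0.1, by bin of UMIs per cell in Teff cluster 0, anti-CD137 in red circles and Ig control in blue squares. The S or G2M share was lower after anti-CD137 in 9 of 9 bins, whereas the ribosomal medians change order at 2000, 5000 and 7000 UMIs.

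Few receptor pairs recurred in anti-CD137 cluster 0, and more did in Ig control cluster 0. The 8109 paired anti-CD137 cells held 8081 clonotypes and the 7744 paired Ig control cells 7616. Cells whose pair recurred in cluster 0 numbered 54 after anti-CD137, 0.666% (0.501 to 0.868), and 249 in the Ig control, 3.22% (2.83 to 3.63). Thinned to the 7744 paired cells of the smaller library, the anti-CD137 share was 0.639% (0.468 to 0.836). By TRB alone the thinned shares were 1.77% after anti-CD137 (1.49 to 2.09) and 7.70% in the Ig control (7.11 to 8.31). In cluster 2 the shares thinned to the same number were 0.817% and 1.25% for pairs and 3.08% and 4.51% for TRB. Over all depths, cluster 0 thus lay below cluster 2 after anti-CD137 and above it in the Ig control. For pairs after anti-CD137 the intervals of the clusters overlapped, 0.468 to 0.836 in cluster 0 and 0.626 to 1.04 in cluster 2. These shares were not matched for UMI depth, and cluster 0 was shallower than cluster 2. Of paired Ig control cluster 0 cells with at least 3000 UMIs, 147 of 5720 had a TRB that recurred in their cluster at any depth. In Ig control cluster 2 it was 307 of 7557, so by TRB the order there was the other way. After anti-CD137 the counts were 66 of 5379 in cluster 0 and 336 of 9159 in cluster 2. Those counts were not thinned.

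Recurring cells were mostly shallow: 20.4% of them after anti-CD137 and 19.3% in the Ig control had at least 3000 UMIs. The share of paired cells with a recurring pair was higher in the Ig control in 8 of 9 bins. The gap in points was widest below 2000 UMIs. Whether shallow barcodes with the same chains are separate cells of a clone was not tested. Recurring pairs took 3.03% of paired anti-CD137 cells and 15.5% of paired Ig control cells with 1000 to 1500 UMIs, 1.99% and 9.15% with 2000 to 2500, 0.336% and 1.71% with 3000 to 4000, and 0.124% and 0.471% with 4000 to 5000. By TRB alone, 5.45% of anti-CD137 and 43.3% of Ig control paired cells with 1000 to 1500 UMIs had a TRB found in another cluster 0 cell. The median was 2273 UMIs in the 54 recurring anti-CD137 cells and 2146 in the 249 recurring Ig control cells, against 3470 and 3961 in cells whose pair was found once. Recurring cells had a median of 6 TRB UMIs after anti-CD137 and 5 in the Ig control, against 9 in both for the rest. Restricted to cells of at least 3000 UMIs, the thinned shares differed by -0.283 points (-0.497 to -0.0817), against -2.58 points (-3.03 to -2.15) over all depths. In that restriction a pair had to recur among the deeper cells themselves, unlike in the bins above. With partners of any depth, 11 of 5379 anti-CD137 and 48 of 5720 Ig control paired cells of at least 3000 UMIs recurred. The part of UMI depth in the difference that remained from 3000 UMIs up was not tested.

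A recurring TRB did not bring the same TRA in most cases. Among the other cluster 0 cells with the same TRB, 34.7% carried the same TRA after anti-CD137 (over 150 cells) and 39.1% in the Ig control (over 596 cells). For cells under 3000 UMIs these shares were 49.4% and 41.9%, and for cells from 3000 UMIs up 15.9% and 30.7%. Cluster 2 gave 25.5% and 27.0%.

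Few cluster 0 receptors were found in other clusters or libraries. Over the whole Teff library, 1.07% of paired anti-CD137 cluster 0 cells (0.860 to 1.32) and 3.69% of Ig control ones (3.28 to 4.14) had a partner cell in any cluster. Teff cells outside cluster 0, pooled and not thinned, had one in 6.82% after anti-CD137 (6.38 to 7.28) and 3.72% in the Ig control (3.35 to 4.12). The order of the treatments was the other way in that pool, but not in cluster 2, the largest part of it. There, unthinned, pairs that recurred within cluster 2 took 1.03% of paired cells after anti-CD137 and 1.27% in the Ig control. A partner in cluster 2 was found for 27 anti-CD137 and 36 Ig control cells, and a partner in any other single Teff cluster for at most 3. In the same treatment's precursor exhausted library 1 of 8109 anti-CD137 and 4 of 7744 Ig control cells had their clonotype, and in the exhausted library 0 and 0. Teff cells outside cluster 0 were found in the precursor exhausted library at 1.16% after anti-CD137 and 1.24% in the Ig control, and in the exhausted library at 1.30% and 0.527%. Cluster 0 clonotypes in a library of the other treatment were found for 0 anti-CD137 and 2 Ig control cells.

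TRB chains of the same nucleotide CDR3 did occur in both treatments without a shared pair. There were 56 such TRB CDR3s in cluster 0, 0.697% of the 8032 anti-CD137 and 0.754% of the 7425 Ig control TRBs, and 0 shared TRB and TRA pairs. By amino acid sequence 490 TRBs were shared, 6.34% and 6.86%. The shared nucleotide CDR3s had fewer bases outside germline V and J: their median was 6 in the anti-CD137 and 8 in the Ig control cells, against 10 and 10 for TRBs seen in 1 treatment. The 6 printed sequences had between 0 and 13. The match to germline uses the V segment listed in each library, so the same CDR3 can have another count of such bases in the other library. Cluster 2 had 140 shared nucleotide TRBs, 1.47% and 1.82% of its TRBs, and 1 shared pair.

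TRBJ use was near identical in the treatments. TRBJ2-7 was the most used TRB J segment, in 20.8% of paired anti-CD137 cells (19.96 to 21.7) and 21.3% of paired Ig control cells (20.4 to 22.2). TRBJ2-1 followed at 12.9% and 13.9% and TRBJ2-5 at 11.7% and 11.6%. The TRBJ2 group together took 68.4% of anti-CD137 and 69.0% of Ig control cells, a difference of -0.540 points (-1.99 to 0.913). Ratios of the 12 TRBJ segments lay between 0.929 and 1.07, and 0 of the 12 difference intervals left out 0. A D segment was listed for 22.2% of anti-CD137 and 22.4% of Ig control TRB chains. TRBD2 lies downstream of the TRBJ1 segments, and of chains with a listed D and a TRBJ1 segment 3 of 500 and 6 of 443 named TRBD2, against 633 of 1302 and 642 of 1295 with a TRBJ2 segment.

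The most used TRBV calls were TRBV12-2+TRBV13-2, a combined name kept as deposited, with 8.67% of anti-CD137 and 8.51% of Ig control cells, TRBV16 with 7.53% and 7.75%, and TRBV3 with 6.75% and 7.37%. The most used TRAV calls were TRAV12D-3 with 5.27% and 5.44%, TRAV12-2 with 4.75% and 4.33%, and TRAV3N-3 with 4.64% and 4.55%. Tra holds duplicated V segments of close sequence, so calls within such a family are uncertain. Among the 20 TRBV and 40 TRAV calls with at least 1% of cells in 1 library, 0 and 0 had a difference interval that left out 0.

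Ratios of the 38 TRAJ segments with at least 1% of cells in 1 library ranged more widely, from 0.790 to 1.31. TRAJ22 was the most used, in 8.08% of anti-CD137 cells (7.49 to 8.69) and 7.75% of Ig control cells (7.16 to 8.37), then TRAJ30 with 5.69% and 5.10% and TRAJ26 with 4.70% and 5.22%. Of the 50 TRAJ and TRBJ segments with at least 1% of cells in 1 library, 5 differed at least 1.2-fold between treatments, which is 10% of them, against 3 of 51 (5.88%) in cluster 2, where 1 was higher (1.96%) and 2 were lower (3.92%). All 5 were TRAJ segments, 4 higher (8%) and 1 lower (2%) after anti-CD137. TRAJ9 was used by 3.90% of anti-CD137 cells (3.49 to 4.34) and 3.01% of Ig control cells (2.64 to 3.41), a difference of 0.888 points whose lower bound was 0.311. It was the only one of 38 TRAJ segments whose difference interval left out 0, and the intervals were not adjusted for the number of segments compared. In cluster 2 TRAJ9 was used by 3.14% and 3.00%, and in cluster 0 cells with at least 3000 UMIs by 3.77% and 3.01%.

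The other 4 had difference intervals that took in 0. TRAJ6 was used by 1.36% of anti-CD137 and 1.03% of Ig control cells, TRAJ4 by 1.38% and 1.14%, TRAJ38 by 1.07% and 0.891%, and TRAJ11, the one that was lower, by 1.12% and 1.42%. In cells with at least 3000 UMIs TRAJ4 was used by 1.25% and 1.17%, and TRAJ38 by 1.17% and 0.787%. TRAJ6 was the other way round in cluster 2, with 0.945% after anti-CD137 and 1.204% in the Ig control.

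**Figure D3:**
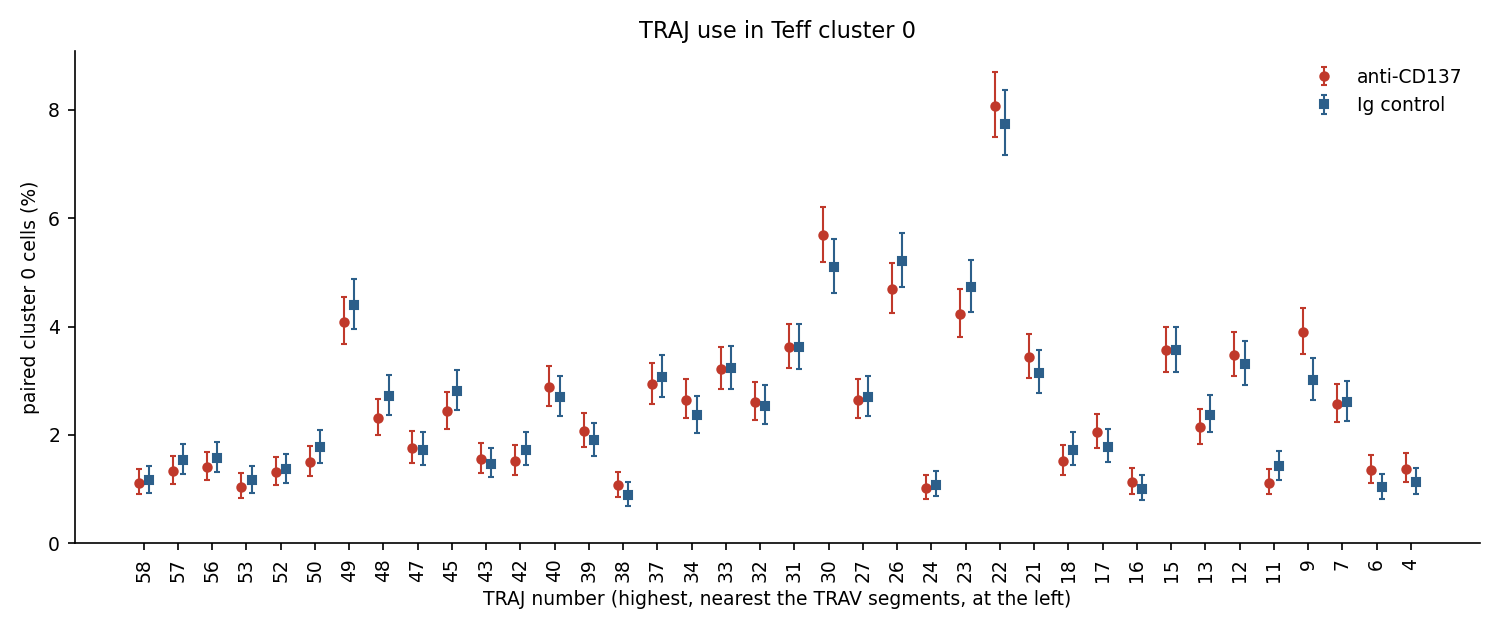
Share of paired Teff cluster 0 cells using each TRAJ segment that reached 1% in a library, ordered by number from the TRAV side of the locus, anti-CD137 in red circles and Ig control in blue squares, with exact 95% intervals. Intervals of the treatments overlap for nearly all segments. TRAJ9, with 3.90% against 3.01%, was the only 1 of 38 whose difference interval left out 0, without adjustment for the number compared.

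Grouped by place, TRAJ segments numbered 40 and higher, nearest the TRAV segments, were used by 25.2% of anti-CD137 cluster 0 cells (24.3 to 26.2) and 26.9% of Ig control cluster 0 cells (25.9 to 27.9), a difference of -1.70 points (-3.08 to -0.328). The interval took in 0 in cells with at least 3000 UMIs (-1.31, -2.95 to 0.339) and with at least 5 TRB and 3 TRA UMIs (-1.39, -3.23 to 0.454). For segments numbered 30 and higher the difference was -0.628 points (-2.19 to 0.938). In cluster 2 they were used by 28.5% and 29.7%, a difference of -1.28 points (-2.64 to 0.0784). Segments numbered under 20 were used by 25.6% of anti-CD137 and 24.5% of Ig control cluster 0 cells.

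Cluster 0 and cluster 2 differed in Tra use the same way in both libraries. The share of segments numbered 40 and higher was lower in cluster 0 than in cluster 2 by 3.26 points after anti-CD137 (difference -3.26, interval -4.57 to -1.94) and by 2.83 points in the Ig control (-2.83, -4.25 to -1.41). Segments numbered 50 to 59 took 7.73% of cluster 0 and 10.3% of cluster 2 after anti-CD137, and 8.57% of cluster 0 and 10.2% of cluster 2 in the Ig control. Those below 10 took 10.6% and 8.24% after anti-CD137 and 9.26% and 8.04% in the Ig control. Within 7 bins of UMIs per cell, the share numbered 40 and higher was lower in cluster 0 in 6 bins in each library, with differences between -16.3 and 3.91 points after anti-CD137 and between -8.21 and 3.02 points in the Ig control. The sources used here do not say whether TCR segments were among the genes used for clustering.

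Of the 51 J segments compared in each library, 13 (25.5%) differed at least 1.2-fold between cluster 0 and cluster 2 after anti-CD137 and 10 (19.6%) in the Ig control. The same way in both libraries were 7 of 50, or 14%, and in opposite ways 0. TRAJ37 was higher in cluster 0, with 2.94% against 2.35% in cluster 2 after anti-CD137 and 3.07% against 2.18% in the Ig control. TRAJ7 was higher too, with 2.57% against 2.02% and 2.61% against 1.90%. The 5 that were lower were TRAJ24, TRAJ28, TRAJ52, TRAJ56 and TRAJ58, and the last 3 lie at the TRAV end. TRAJ24 had 1.02% in cluster 0 and 1.31% in cluster 2 after anti-CD137, and 1.08% and 1.31% in the Ig control. TRAJ28 had 0.802% and 1.12% after anti-CD137 and 0.801% and 1.04% in the Ig control. TRAJ52 had the lowest ratio after anti-CD137, with 1.32% in cluster 0 and 2.02% in cluster 2, and 1.37% and 1.71% in the Ig control. TRAJ56 had 1.41% and 1.98% after anti-CD137 and 1.58% and 2.12% in the Ig control. TRAJ58 had 1.12% and 1.46% after anti-CD137 and 1.16% and 1.67% in the Ig control. The 7 were picked by fold alone. Share intervals of the clusters overlapped for TRAJ24, TRAJ28 and TRAJ58 in both libraries. They overlapped for TRAJ52 and TRAJ56 in the Ig control only, and for TRAJ37 and TRAJ7 after anti-CD137 only. With cells of at least 3000 UMIs the 7 segments had the same order in both libraries. These are most of the cells on which the 7 were chosen, so this is not a separate check.

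**Figure D4:**
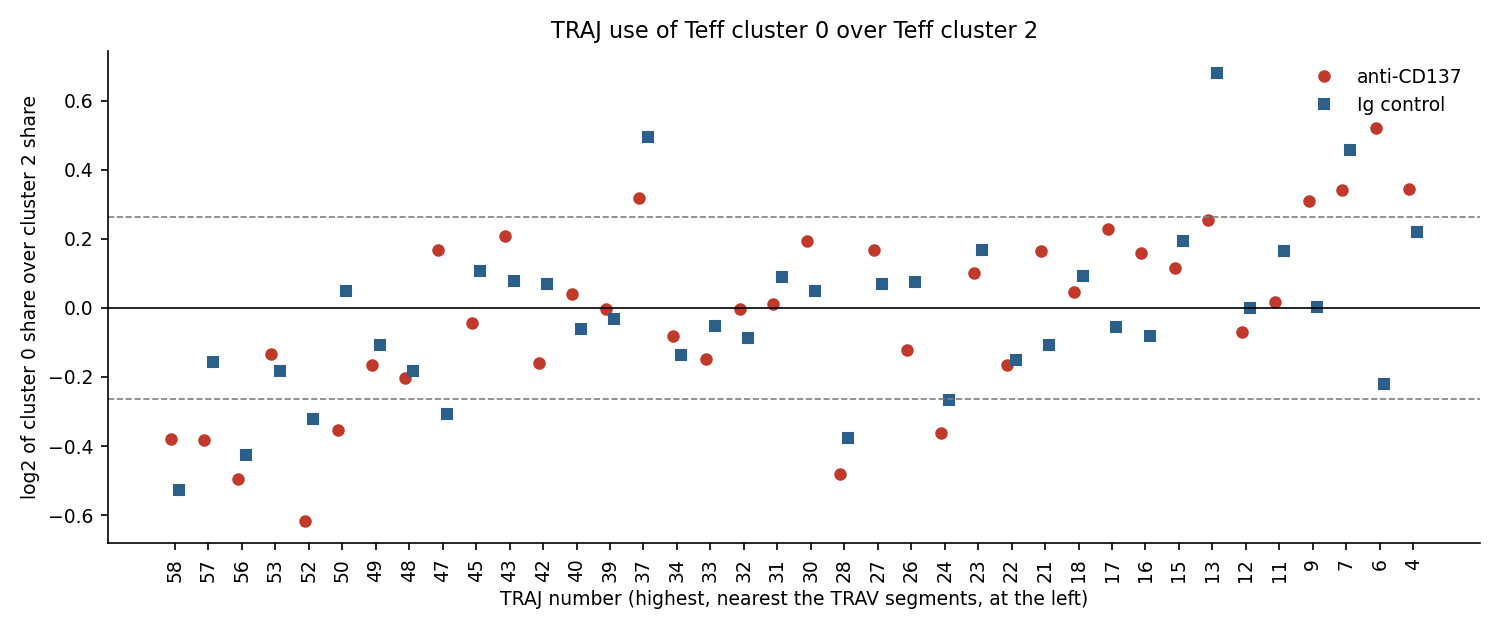
Log2 of the share of each TRAJ segment in Teff cluster 0 over its share in Teff cluster 2 within the same library, ordered by number from the TRAV side, anti-CD137 in red circles and Ig control in blue squares. Dashed lines mark 1.2-fold. TRAJ58, TRAJ56 and TRAJ52 lie below the lower line and TRAJ37 and TRAJ7 above the upper line in both libraries.

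CDR3 lengths were alike between treatments. The TRB CDR3 averaged 13.97 residues after anti-CD137 and 13.96 in the Ig control (SD over cells 1.46 and 1.47), with a median of 14 in both. TRB CDR3s of at least 15 residues were found in 35.8% of anti-CD137 cells (34.8 to 36.9) and 35.2% of Ig control cells (34.2 to 36.3). The corresponding cluster 2 shares were 33.3% and 31.8%, below cluster 0 by 2.48 points after anti-CD137 (cluster 0 minus cluster 2, 1.07 to 3.89) and by 3.44 points in the Ig control (1.96 to 4.93). TRA CDR3s of at least 15 residues were found in 23.0% and 22.9%. TRA CDR3s of at most 12 residues were found in 22.0% of anti-CD137 and 20.2% of Ig control cells, a difference of 1.78 points (0.501 to 3.06). One Ig control TRA was listed with a CDR3 of 129 residues, the next longest having 22, and without it the TRA means were 13.6 residues in both.

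Bases outside the germline segments followed the same pattern. TRB chains had a median of 10 in both treatments and a mean of 10.1 in both (SD over cells 3.95 and 3.93), against means of 9.87 and 9.69 in cluster 2. TRB chains with at most 3 such bases were 4.25% of anti-CD137 and 4.001% of Ig control cluster 0 chains, and 4.97% and 5.48% of cluster 2 chains. The cluster 0 share was lower by 0.719 points after anti-CD137 (difference -0.719, -1.36 to -0.0775) and by 1.48 points in the Ig control (-1.48, -2.17 to -0.787). TRA chains had a median of 3 in both, and 15.9% of anti-CD137 and 14.9% of Ig control chains had 0. Hydrophobic residues (A, C, F, I, L, M, V, W or Y) at both positions 6 and 7 of the TRB CDR3, counted from 1 at the conserved cysteine and a trait tied in mice to self-reactivity, were found in 3.29% of anti-CD137 (2.91 to 3.70) and 3.02% of Ig control cluster 0 cells (2.65 to 3.43), a difference of 0.271 points (-0.283 to 0.824).

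**Figure D5:**
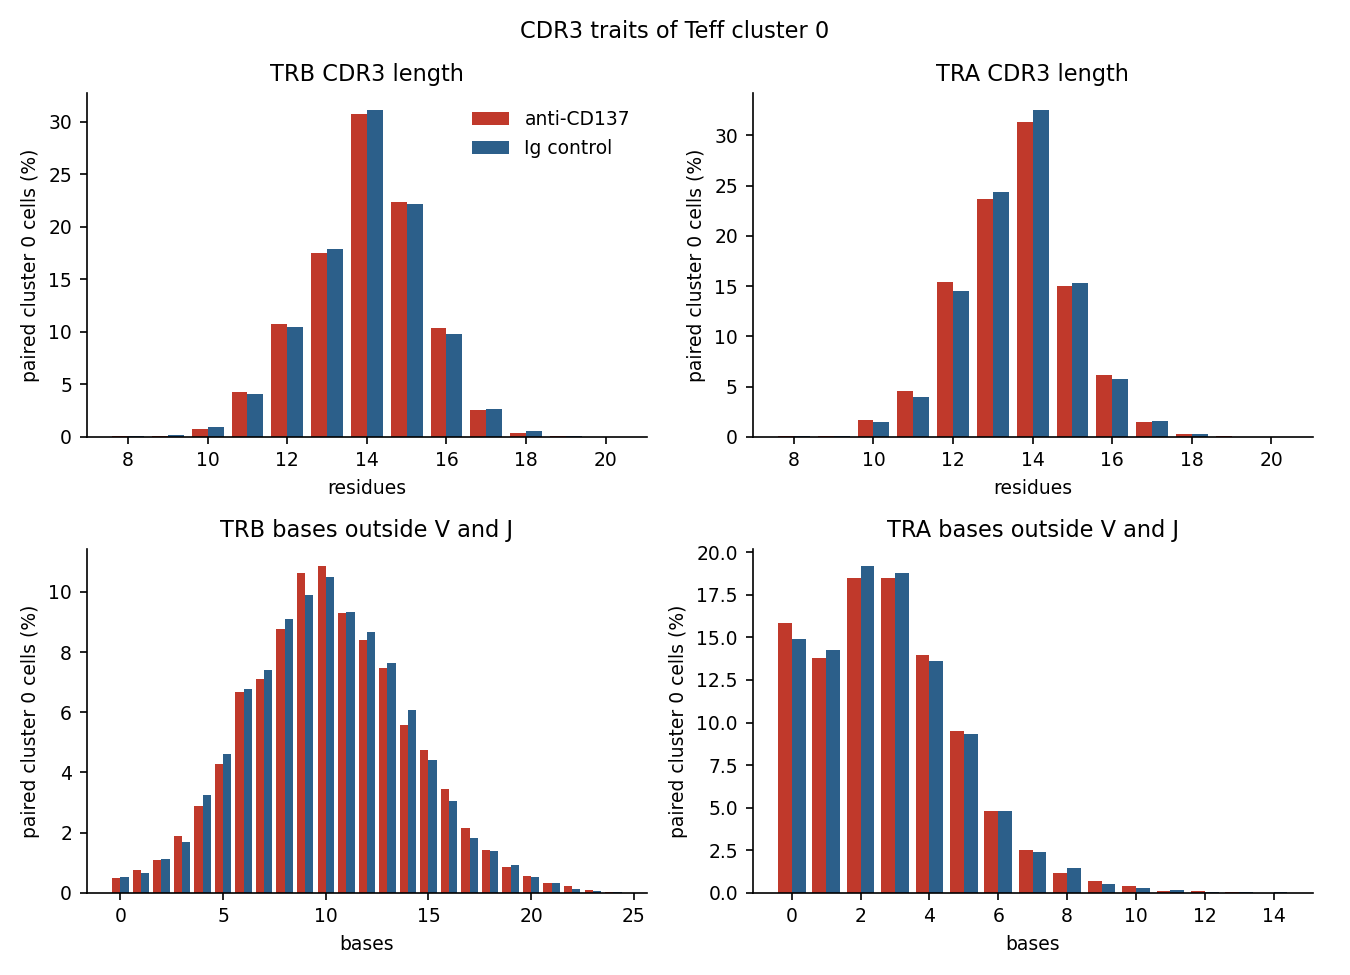
Distribution of CDR3 length in residues and of CDR3 bases outside germline V and J, for TRB and TRA of paired Teff cluster 0 cells, anti-CD137 in red and Ig control in blue. The distributions overlap almost wholly, with TRB medians of 14 residues and 10 bases and TRA medians of 14 residues and 3 bases in both libraries; the TRA CDR3 of 129 residues lies outside the axis.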

How the data were processed

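The authors deposited a table of cells and a table of TCR contigs. Per the file headers, the cell table gives for each cell the count of UMIs and of genes, the percent of UMIs from mitochondrial and ribosomal genes, cell cycle score columns with a phase, and a Seurat cluster number. The deposited TCR table gives the count of UMIs and reads per contig. Tools named in the submitters' processing notes are Cell Ranger 3.0.2 and Seurat 4.0.0, with the build mm10. Cells of cluster 0 were joined to contigs by library and barcode, and the chain with most UMIs of each kind was used. The sources used here do not say whether doublets were removed, and no caller was run. The 2 Teff libraries shared 941 barcode sequences, among them 420 of anti-CD137 and 460 of Ig control cluster 0 cells, and 0 of these had the same TRB. Germline segments came from GENCODE M21, with matches of at least 3 bases; 95.2% of TRB and 96.6% of TRA chains were matched. No TRBV10 chain was matched, 4.86% of paired anti-CD137 and 4.76% of paired Ig control cluster 0 cells, so counts of bases outside germline leave out that whole V segment.

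No test was run, with 1 library per treatment. Total depth in cluster 0 was 41351798 UMIs after anti-CD137 and 45151403 in the Ig control. Intervals are at 95% and treat cells as independent, which cells of 1 clonotype are not. The named segments were J segments with at least 1% of cells and a fold of at least 1.2, the 3 most used of each kind, 3 clonotypes of each library by size, ties taken in the order of their CDR3 letters, and the TRBs shared in most cells. The members and lists were chosen with earlier results of these data known. Scripts used Python 3.11.15, numpy 2.4.6, pandas 2.3.3, scipy 1.17.1 and matplotlib 3.10.9, and were tested on simulated data. The alternatives varied depth, mitochondrial percent, chain UMIs, chain number, clonotype definition and thresholds. The restriction to cells with at least 3000 UMIs, all alternatives for inserted bases and those for cluster 0 against cluster 2 were chosen after seeing the data.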

Additional observations from a re-analysis of the deposited data

How the results depend on the processing

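Values here are differences, anti-CD137 minus Ig control, unless named counts. No paired analysis was possible because each treatment has 1 library. Of 84 alternatives over 18 results, 0 turned a direction whose interval left out 0. Many of the 84 could not do so, being counts or alternatives to a difference whose main interval took in 0. Some of the latter changed sign. With at least 3000 UMIs the TRBJ2 difference went from -0.540 to 0.505 points and the second-TRA one from -0.986 to 0.207. Paired cells only gave -443.5 for median UMIs (all cells -90), -113 for median genes, 0.473 points for ribosomal, -0.625 for mitochondrial percent and -4.38 for the cluster 0 share of Teff. Weighting over bins of UMIs gave -6.39 genes, 0.419 ribosomal points and 5.78 points for the paired share. Cells with at least 3000 UMIs gave 0.600 ribosomal, -0.674 mitochondrial, 0.283 paired, -0.283 recurring and 0.207 second-TRA points. At most 5% mitochondrial UMIs gave -0.573 mitochondrial points, and scores above 0.1 gave -1.91 points in place of the phase call. The recurring share differed by -2.13 points with exactly 1 TRA and 1 TRB, -5.92 by TRB alone and -0.204 from 3 cells up. The count of J segments past 1.2-fold, 5, was 8 with exactly 1 TRA and 1 TRB, 10 with at least 3000 UMIs, 1 at a minimum share of 2%, 20 at 1.1-fold and 0 at 1.5-fold. The cause of these shifts was not tested. Below 2000 UMIs few Ig control cells have a chain, which limits what receptor shares say of shallow cells.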
